A study of Mus musculus with 2 samples.

Results

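The genes described here are 10 mouse genes that mark undifferentiated embryonic stem cells: Dppa2, Dppa3, Dppa4, Dppa5a, Utf1, Zfp42, Fbxo15, L1td1, Tex19.1 and Rhox5. They were taken by symbol from a table of 50508 genes, and 10 of 10 were found there. The table holds 2 libraries of E14 cells, a 129/Ola embryonic stem cell line, at passages 15 to 18. The cells grew on gelatin in 15% serum and 1000 U/ml LIF (leukemia inhibitory factor), which holds mouse stem cells undifferentiated. One group received a scramble siRNA as control and the other an siRNA against Mettl8, both with the same lipid reagent, and RNA was taken after 72 h. The series title frames the study around Mettl8 as a STAT3 target and the exit from the stem cell state. There is 1 library per group and therefore no replicate error. The series record speaks of triplicates, and the sources used here do not say whether a column pools cultures.

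The Dppa genes (developmental pluripotency associated) were named for transcripts found in pluripotent cells and lost on differentiation. They are not 1 protein family. Dppa2 and Dppa4 are related SAP-domain proteins that bind each other and CpG-rich promoters, which they keep open to activation and free of DNA methylation. Dppa3 is a maternal factor that restrains the DNA methylation cofactor UHRF1, and Dppa5a is a small RNA-binding protein of the KH type. Utf1 (chromatin-bound), Zfp42 (the zinc finger protein REX1), Fbxo15 (a ubiquitin ligase adaptor) and L1td1 (an RNA-binding protein descended from a LINE-1 element) are classic reporters of the stem cell state. Tex19.1 and Rhox5 are germline and placental genes that are also active in these cells.

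The siRNA target was read first, and it went against the label. Mettl8 is the gene of a transfer RNA methyltransferase that makes 3-methylcytidine. It stood at 0.67 FPKM (fragments per kilobase of gene and M reads, M for mega) in the library labelled scramble siRNA and at 100.34 FPKM in the library labelled Mettl8 siRNA. The ratio was 149.8, with a 95% counting interval of 123 to 182. Differences are given below as the Mettl8 siRNA label minus the scramble siRNA label, and their sign cannot be read as an effect of losing Mettl8. The denominators rebuilt from the values were 28.5 and 27.8 M reads, in that order, of which protein-coding genes held 14.0 and 13.8 M.

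The labelled cell type was visible in the stem cell factors. Pou5f1 (OCT4) stood at 155 and 164 FPKM, Nanog at 175 and 173, Sox2 at 94.8 and 85.8, Esrrb at 50.1 and 48.3 and Klf4 at 20.1 and 17.5. Of 14 fibroblast or feeder markers, 1 had a mean of at least 1 FPKM (Vim, 17.2 and 18.9), and their summed level was 19.5 and 20.8 FPKM. The corresponding counts were 2 of 9 for trophectoderm (15.3 and 13.8 FPKM summed), 0 of 10 for endoderm (1.54 and 1.84) and 3 of 10 for ectoderm and mesoderm (22.0 and 22.6). The trophectoderm sum came mostly from Tfap2c (11.99 and 10.74), and that of ectoderm and mesoderm mostly from Tubb3 (17.92 and 17.94). On these 4 lists, 0 markers were listed at 0 in both libraries. The part of other cell types in the differences below was not tested.

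Promoter windows of 250 bases before the RefSeq gene start (build GRCm38.p6) were at hand for 5 of the 10 genes, L1td1, Utf1, Zfp42, Tex19.1 and Rhox5. Zfp42 is shown because it alone of the 5 held the octamer ATTTGCAT, the letters that OCT4 recognises, on either strand. The octamer is in capitals and begins at base -186 from the start. Tex19.1 is shown because it had the most CG dinucleotides of the 5, in capitals here, and its promoter is known as a target of DNA methylation in other tissues.
Zfp42, chr8:43307010-43307259, minus strand: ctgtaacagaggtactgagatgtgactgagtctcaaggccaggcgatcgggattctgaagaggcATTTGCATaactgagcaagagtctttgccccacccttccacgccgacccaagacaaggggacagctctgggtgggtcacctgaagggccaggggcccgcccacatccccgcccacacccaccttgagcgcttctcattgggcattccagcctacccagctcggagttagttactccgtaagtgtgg
Tex19.1, chr11:121145893-121146142, plus strand: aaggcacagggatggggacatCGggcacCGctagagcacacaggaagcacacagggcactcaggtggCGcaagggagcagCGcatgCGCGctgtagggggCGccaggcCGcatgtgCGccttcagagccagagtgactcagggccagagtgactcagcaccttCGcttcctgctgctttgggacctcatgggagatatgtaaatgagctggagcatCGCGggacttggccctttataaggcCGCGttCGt

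The octamer occurred in 1.60% of all 32851 windows of this length. The letters CCACACCC, a KLF-type motif searched on both strands, were in the same Zfp42 window and in 3.20% of all windows. The 2 matches did not overlap. The Tex19.1 window held 15 CG, Utf1 14, L1td1 11, Zfp42 9 and Rhox5 4, beside a median of 6 over all windows. The Rhox5 window lies 50.2 kb before the start that GENCODE M21 gives for the gene, whose exons match the deposited length. A match of letters describes the window and is not a measured binding site.

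The 10 genes spanned a wide range of abundance, and 9 of them had a mean of at least 10 FPKM. Dppa5a was the most abundant, at 578 FPKM (exact Poisson interval 567 to 589) in the library labelled scramble siRNA and 564 FPKM (552 to 575) in the library labelled Mettl8 siRNA. It ranked 16 and 17 among the protein-coding genes and made up 59.0% and 58.4% of the summed FPKM of the 10 genes. Zfp42 followed at 104 and 98.0 FPKM. Fbxo15 stood at 76.0 and 75.7 FPKM, and L1td1 at 72.45 and 75.72 FPKM. The ratio of Fbxo15 to L1td1 was 1.05 (1.00 to 1.09), with the interval just above 1, in the library labelled scramble siRNA. It was 1.00 (0.958 to 1.04) in the other, where their order was not resolved. These intervals do not cover the choice of gene length. The deposited length of Fbxo15 is 1437 bases, while its exons in GENCODE M21 cover 3360. With the longer length and the same reads, Fbxo15 would stand lower in this order. The lengths of Dppa2 and Dppa4 also differ from those in GENCODE M21.

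Dppa4 and Utf1 were neighbours in the middle of this order. Utf1 was above Dppa4 in the library labelled scramble siRNA (43.5 against 40.8 FPKM) and below it in the other (36.9 against 40.5 FPKM). The ratio of Utf1 to Dppa4 was 1.07 (0.994 to 1.14) and 0.911 (0.847 to 0.980). Below them came Dppa2 at 26.0 and 29.9 FPKM, Rhox5 at 20.4 and 24.2, and Tex19.1 at 16.55 and 18.05, in the same order in both libraries. Dppa3 was by far the lowest, at 2.91 FPKM (2.29 to 3.66) and 2.46 FPKM (1.88 to 3.16). The level of Dppa5a exceeded that of Dppa3 by a factor of 199 (158 to 253) and 229 (178 to 300). Dppa3 is known to be active in only some cells of a serum culture. In these bulk samples fewer cells of a kind and less RNA per cell cannot be told apart.

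**Figure D1:**
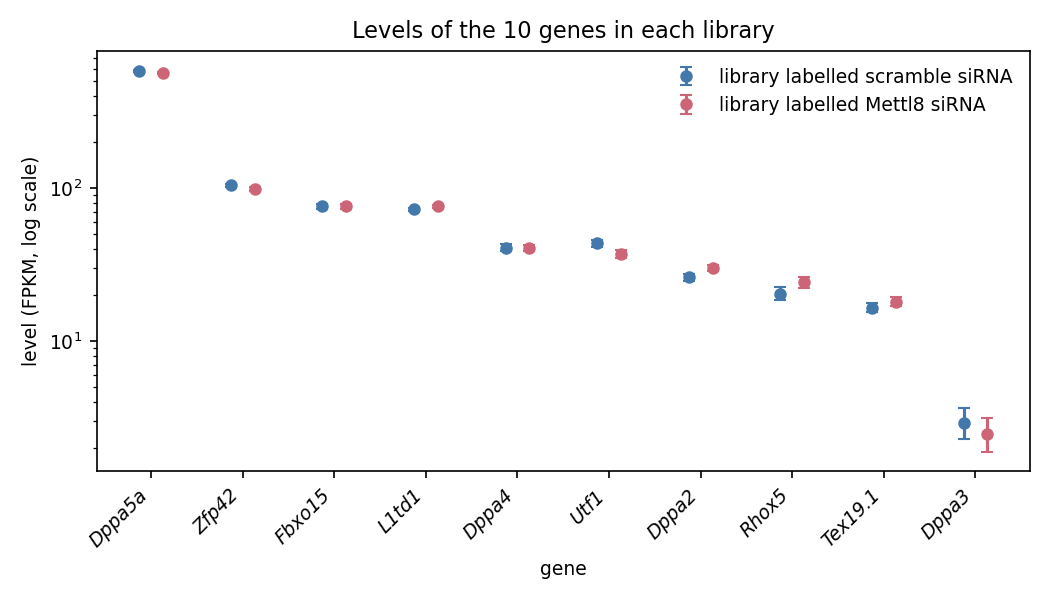
Level of each of the 10 genes in FPKM on a log axis, in the library labelled scramble siRNA (blue) and the library labelled Mettl8 siRNA (red), ordered by mean level; bars are 95% exact Poisson intervals and cover counting error only. Dppa5a lies at 578 and 564 FPKM, 8 genes lie between 16 and 104 FPKM, and Dppa3 lies below 3 FPKM in both libraries.

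None of the 10 genes differed much between the libraries. Differences were taken as log2(FPKM + 1), on which low genes appear less changed than they are, and ran from -0.23 (Utf1) to 0.23 (Rhox5). Of the 10, 0 reached 1.5-fold on this scale, beside 2.11% of the 13243 genes with a mean of at least 1 FPKM and 0.1% of the 9965 protein-coding ones. At 2-fold the count was again 0, beside 0.642% and 0.0201%. With 1.2-fold in place of 1.5-fold it was also 0, beside 9.49% of all genes and 2.61% of the protein-coding ones.

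In direction the 10 genes were mixed. As deposited, 4 were higher and 6 lower, beside 54.5% of the protein-coding genes higher and 44.5% lower. With each library rescaled to the same FPKM sum, 8 were higher and 2 lower. The median difference of the 10 was -0.0066, that of all measured genes was 0.013, and after this rescaling they were 0.085 and 0.089. With that median, most measured genes were also higher after the rescaling, and their exact share is not given here. No test between the groups is possible with 1 library each, and the spread between cultures is unknown.

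Rhox5 and Dppa2 showed the largest positive differences. Rhox5, an X-linked homeobox gene, had 438 and 507 reads, a ratio of 1.18 (1.04 to 1.35, Clopper-Pearson interval). Of the protein-coding genes, 1.64% had a higher difference. Dppa2 had 1442 and 1622 reads, a ratio of 1.15 (1.07 to 1.24) and a log2 difference of 0.20, and 3.43% of the protein-coding genes lay above it. Tex19.1 had 882 and 940 reads with a ratio of 1.09 (0.994 to 1.2). L1td1 had 6545 and 6685 reads with a ratio of 1.05 (1.01 to 1.08). These 4 genes were higher under each scaling tried.

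Utf1 showed the largest negative difference on the log2(FPKM + 1) scale. As a plain ratio Dppa3, at 0.845, was slightly below Utf1. Utf1 had 1518 and 1261 reads and a ratio of 0.850 (0.788 to 0.917). In size, either way, 4.15% of the protein-coding genes had a larger difference than Utf1. By the same measure the share was 3.87% for Rhox5 and 7.39% for Dppa2. Dppa3 had 74 and 61 reads and a ratio of 0.845 (0.591 to 1.2), so that its difference was not detectable at this depth. Utf1 and Dppa3 were lower under each scaling tried. Zfp42 had a ratio of 0.945 (0.909 to 0.981), Dppa5a 0.975 (0.948 to 1.00), Fbxo15 0.997 (0.948 to 1.05) and Dppa4 0.994 (0.930 to 1.06), and these 4 were higher, not lower, with each library rescaled to the same FPKM sum. A single gene of 57 bases, Gm23935, made up 33.3% and 32.1% of that sum.

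**Figure D2:**
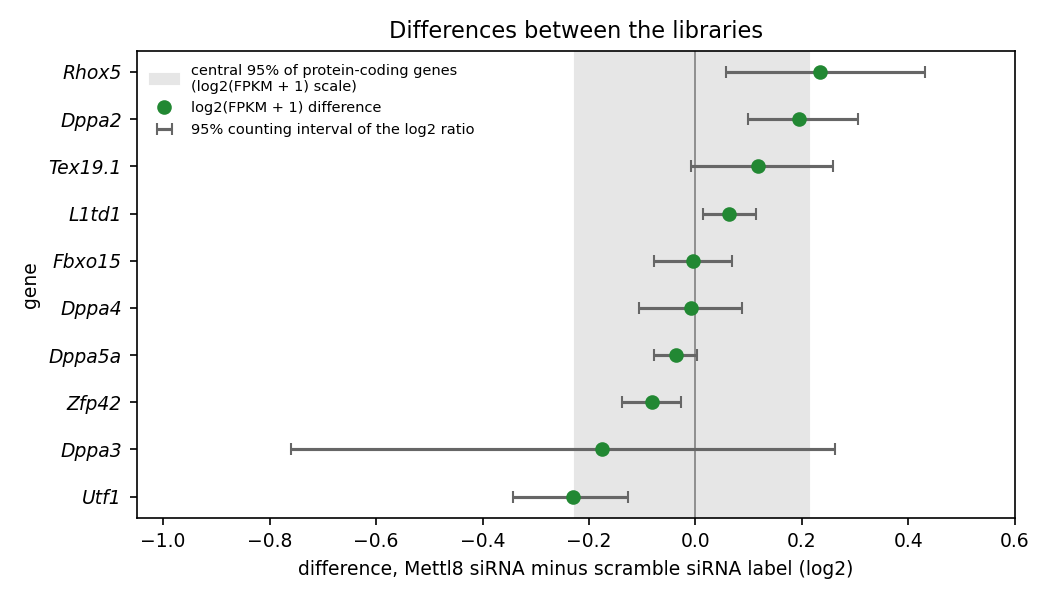
Difference of each gene (log2, library labelled Mettl8 siRNA minus library labelled scramble siRNA); dots are log2(FPKM + 1) differences, bars the 95% counting interval of the log2 ratio, and the band the central 95% of 9965 protein-coding genes. Utf1 and Rhox5 sit at the edges of the band, at -0.23 and 0.23, and the bar of Dppa3, with 74 and 61 reads, is the widest.

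With the denominators rebuilt from the deposited values, the counting intervals separated the libraries for 5 of the 10 genes. The interval lay above 1 for 3, Dppa2, L1td1 and Rhox5, beside 13.8% of the protein-coding genes. It lay below 1 for 2, Utf1 and Zfp42, beside 8.76%. Deeply read genes have narrow intervals. Among the 2882 protein-coding genes with a mean of at least 10 FPKM, which include 9 of the 10 and all 5 of these, the shares were 25.7% above and 11.3% below. In size, 8 of the 10 differences lay inside the central 95% of the protein-coding genes, from -0.23 to 0.21. Just outside it were Rhox5 and Utf1. The counting intervals were not recomputed under the other scalings, so the count of 5 holds for these denominators only. At equal FPKM sums the difference of Zfp42 changed sign, to 0.011. With reads scaled to the protein-coding total, that of L1td1 went from 0.063 to 0.049.

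**Figure D3:**
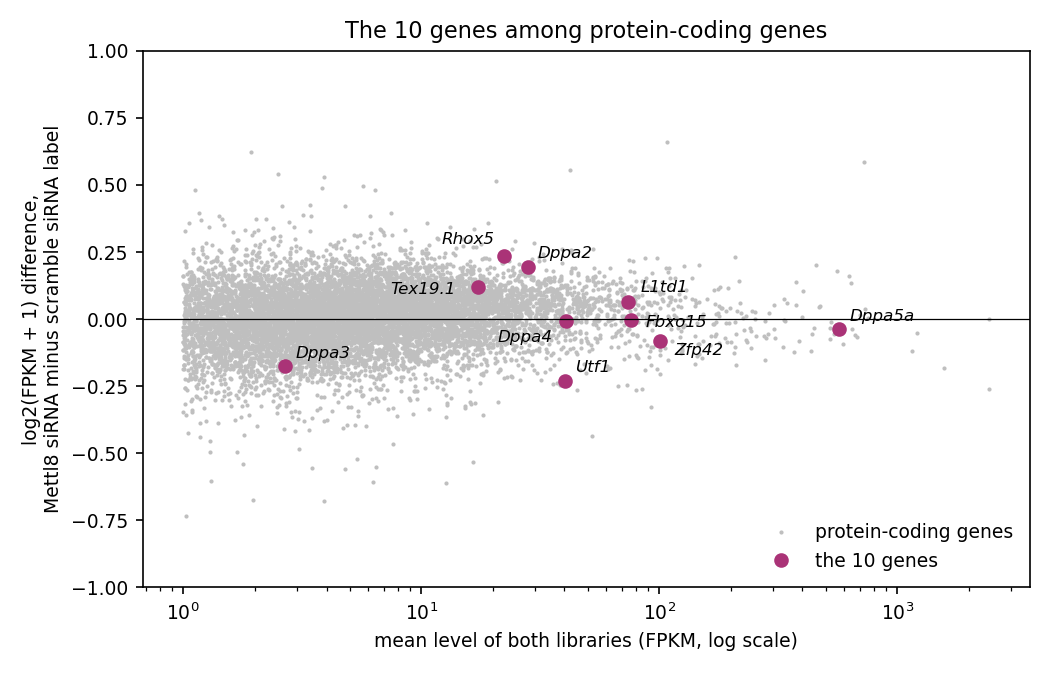
Log2(FPKM + 1) difference against the mean FPKM of both libraries (log axis) for protein-coding genes with a mean of at least 1 FPKM (grey), with the 10 genes in purple; genes past 1 in size, Mettl8 among them, fall outside the axis. The 10 genes lie within the grey cloud, between -0.23 and 0.23.

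Dppa2 and Dppa4 act as a pair and are also neighbours in the genome. In GENCODE M21 (GRCm38) both lie on the plus strand of chromosome 16, Dppa4 at 48283733 to 48294237 and Dppa2 at 48303908 to 48319723, 9.67 kb apart. Dppa2 stood below Dppa4 in both libraries, at a ratio of 0.638 (0.594 to 0.684) in the library labelled scramble siRNA and 0.738 (0.690 to 0.791) in the other. These intervals do not overlap, and they cover counting error only. The size of the ratio also rests on the deposited lengths, 1948 bases for Dppa2 and 1534 for Dppa4. Their exons in GENCODE M21 cover 2447 and 1662 bases. Dppa4 was nearly level, so that the shift of this ratio came with the Dppa2 value.

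The other genes lay on 8 further chromosomes, and their closest protein-coding neighbours were taken by position alone. Dppa3, on chromosome 6, lies between Gdf3, a TGF-beta family ligand (17.6 and 18.9 FPKM), and Nanog (175 and 173 FPKM), 16.3 and 77.2 kb away, both far more abundant than Dppa3. Dppa5a, on chromosome 9, lies 7.93 kb from Ooep, a related KH-type gene of the egg, at 11.3 and 9.94 FPKM. Tex19.1, on chromosome 11, lies 27.5 kb from its paralog Tex19.2, which stood at 0.27 and 0.21 FPKM. Tex19.1 exceeded this paralog by a factor of 61.3 (36.9 to 106) and 86.0 (48.8 to 166). Zfp42, on chromosome 8, had Triml2 (25.7 and 26.3 FPKM) 101 kb away.

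Rhox5 was the most abundant gene of its X-linked homeobox cluster in both libraries. Of 31 other Rhox genes in the table, 3 had a mean of at least 1 FPKM and 19 were listed at 0 in both libraries. Rhox6 stood at 3.30 and 2.38 FPKM, Rhox13 at 2.09 and 1.68, and Rhox1 at 1.15 and 0.94. These 3 were lower, under each scaling tried, where Rhox5 was higher. The level of Rhox5 exceeded that of Rhox6 by a factor of 6.18 (4.94 to 7.79) and 10.2 (7.84 to 13.3). Rhox6, 18.0 kb from Rhox5, had a ratio of 0.721 (0.520 to 0.997) on 95 and 67 reads, and the intervals of Rhox13 and Rhox1 held 1. The difference between Rhox5 and its neighbours was not tested. Many Rhox genes are near-copies of each other, so their reads may be shared.

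Relatives of the other genes were mostly low. Of 9 in the table, 4 had a mean of at least 1 FPKM. Khdc3, a KH-type partner of Ooep in the egg, stood at 9.94 and 9.29 FPKM. Yy1, the ubiquitous zinc finger factor related to Zfp42, stood at 20.9 and 21.2 FPKM and Yy2 at 3.50 and 3.99. Dppa1 was at most 0.02 FPKM.

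The pluripotency factors that bind stem cell marker genes did not move in 1 direction. Of 13, all with a mean of at least 1 FPKM, 4 were higher, 9 lower and 0 past 1.5-fold. Beside them, 54.5% of the protein-coding genes were higher and 44.5% lower. The median of the 13 factors, -0.052, became 0.033, with 8 higher and 5 lower, at equal FPKM sums. The median of all measured genes was then 0.089, so that most of them were higher too. The largest differences were those of the Kruppel-like factor genes Klf2 at -0.20 (52.6 and 45.5 FPKM) and Klf4 at -0.19. Sox2 followed at -0.14 and Tbx3 at -0.13 (4.86 and 4.34 FPKM). Utf1 had -0.23 beside these.

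Genes found in the same screens for embryonic stem cell transcripts, or tried beside them in reprogramming, also differed little. Of 21, 15 had a mean of at least 1 FPKM, with 7 higher, 7 lower and a median of 0.00. Sox15 had a ratio of 0.886 (0.734 to 1.07) and Myc 1.17 (1.02 to 1.34). Among 19 measured genes of other stem cell markers, 8 were higher, 11 lower and 0 past 1.5-fold, and the median was -0.011. With the same rescaling, under which most measured genes were higher, these lists had 10 higher of 15 and 16 higher of 19. Their medians were then 0.089 and 0.081, beside 0.089 for all measured genes. Of the 19, the most abundant was Tdgf1 (CRIPTO, a NODAL coreceptor) at 125 and 121 FPKM. Lin28a, the let-7 inhibitor, had the largest difference of the 19 at 0.15 (36.1 and 40.1 FPKM).

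Genes that share a DNA methylation link with Dppa3, Tex19.1 and Rhox5 also differed little. Of 8 measured DNA methylation enzymes and DPPA3 partners, 7 were higher and 1 lower, beside 54.5% of the protein-coding genes higher. The median of the 8 was 0.056. Uhrf1 stood at 43.6 and 45.8 FPKM, Tet1, a demethylating oxygenase, at 32.1 and 33.5, and Xpo1, the nuclear export receptor, at 75.9 and 83.8. The ratios of these 3 were 1.05 (1.01 to 1.09), 1.04 (1.02 to 1.07) and 1.10 (1.08 to 1.13), each with its counting interval above 1. So had 25.7% of the protein-coding genes with a mean of at least 10 FPKM. The intervals of the other measured genes of this list, Dnmt1, Dnmt3a, Dnmt3b, Dnmt3l and Tet2, held 1. Of 13 measured germline genes that DNA methylation silences in other cells, 9 were higher and 3 lower, around a median of 0.080. Both medians were above 0 under each scaling tried, while that of all measured genes was 0.013 as deposited and 0.089 at equal FPKM sums. Sycp3, a meiotic chromosome protein gene, was the most abundant of the 13 at 19.6 and 18.3 FPKM. Dazl (2.70 and 2.98) and Ddx4 (2.38 and 2.71), RNA-binding proteins of germ cells, had ratio intervals that held 1. So did the other measured germline genes. On both lists 0 genes passed 1.5-fold.

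Partners of FBXO15 and TEX19.1 ranged widely in level. Skp1a, which links F-box proteins to the ligase, stood at 64.4 and 65.1 FPKM, and the scaffold gene Cul1 at 24.0 and 26.9, a ratio of 1.12 (1.06 to 1.18). Rbx1, the RING subunit, stood at 19.8 and 21.5 FPKM. Ubr2, the ubiquitin ligase that TEX19.1 binds, stood at 6.16 and 5.86 FPKM, and Kif1bp, a target of FBXO15, at 3.74 and 3.73. Of 5 measured partners, 3 were higher and 2 lower around a median of 0.015, beside 54.5% of the protein-coding genes higher. At equal FPKM sums all 5 were higher, as were most measured genes. Their median was then 0.107, and that of all measured genes also rose, from 0.013 to 0.089.

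**Figure D4:**
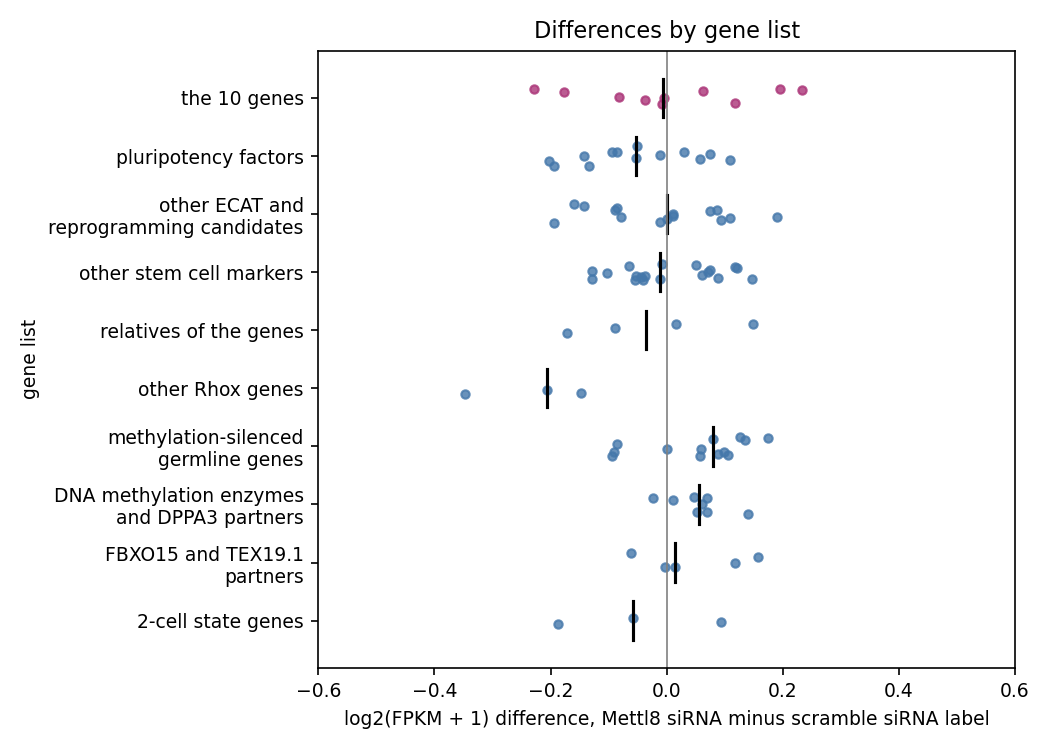
Log2(FPKM + 1) difference of each gene with a mean of at least 1 FPKM (dots; library labelled Mettl8 siRNA minus library labelled scramble siRNA) by gene list, with list medians as black lines and the marker lists of other cell types and the DPPA2 and DPPA4 dependent genes left out; the 10 genes are in purple and vertical scatter has no meaning. The medians shown lie between -0.21 (3 Rhox genes) and 0.080 (13 germline genes), and no dot reaches 1.5-fold.

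Some of these levels depend on how reads of near-copies were assigned, which is not given in the sources used here. In GENCODE M21 transcripts, 5 of the 10 genes had a stretch of at least 75 bases at 95% identity or more in another gene. Dppa5a had 7 such copies, mostly pseudogenes. The highest level of a copy was 4.76 FPKM, that of Pigp, which shares 417 bases with Dppa5a. Dppa2 had 2 copies (at most 1.05 FPKM), Dppa4 had 2 (at most 1.67), Dppa3 had 2 (at most 0.08) and Zfp42 had 1. Utf1, Fbxo15, L1td1, Tex19.1 and Rhox5 had 0. The exons of the 10 genes shared bases with 0 other annotated genes on either strand.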

How the data were processed

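RNA was sequenced from 2 libraries of E14 cells, 1 per group. The submitters' processing notes name the mm10 build, the tool STAR at version 2.4.0i and the tool featureCounts at version 1.5.0-p1. The authors deposited FPKM values rounded to 2 decimals, with a length for each gene. Which annotation was counted, whether strand was used and how reads with several matches were treated is not given in the sources used here. The deposited length equals the exon union of GENCODE M21 for 7 of the 10 genes and differs for Dppa2, Dppa4 and Fbxo15. For the same reads, another length would change their FPKM and not the ratio between libraries. Counted over other exons, the reads and the ratio could change too.

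Within each library the products of FPKM and length were whole multiples of a common step. Of the values in genes under 400 bases used to find it, 3108 and 3535, 100% came within 0.005 reads of a whole number once rounding was allowed for. The read number of each gene followed from this step, to within 0.452 reads for the 10 genes. Poisson and Clopper-Pearson intervals at 95% (scipy 1.17.1) cover counting error only, since PCR copies of a molecule cannot be told apart here. With 1 library per group there is no test and no p-value. The scale of differences was log2(FPKM + 1), and genes with a mean of at least 1 FPKM were counted as measured. Gene type and position come from GENCODE M21, which holds 94.3% of the symbols, and near-copies were found with blastn 2.17.0. On simulated data of all 50508 genes, of 50 genes changed by 1.2-fold at a mean of at least 5 FPKM, 98% had the right direction, and the interval held the true ratio for 96%. The simulated reads had Poisson error alone, which is the error that the intervals assume. The simulation therefore checks the calculation, and cannot speak for spread between cultures, PCR copies or shared reads. Dppa3 lies below its 5 FPKM limit.

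The 10 genes and the gene lists were chosen with earlier results of these data known. Named are the 10 genes, Mettl8, and from each list up to 4 measured genes with the largest differences and the most abundant one. Neighbours and near-copies were added by position or sequence. Ratios between genes, and Dppa1, Tex19.2 and the other genes outside this rule, were picked with the values in view. No gene is named for a pattern like that of the 10, because with 2 libraries any pair of genes has the same or the opposite order.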

Additional observations from a re-analysis of the deposited data

How the results depend on the processing

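The alternatives were a pseudocount of 0.1, 3 planned scalings, 2 filters on low values and a 1.2-fold limit, with a further scaling by the protein-coding FPKM sum without Mettl8 chosen after seeing the data. The 10 genes had 0 members past 1.5-fold under each of them, and their median stayed between -0.022 and 0.085. Of 69 single-gene values, 4 moved beyond their counting interval and 4 changed sign, all with each library rescaled to the same FPKM sum, where 8 genes were higher in place of 4. Dppa5a then stood at 0.057, Zfp42 at 0.011 and Fbxo15 at 0.088. The counts over all genes moved more. The 85 genes past 2-fold and 280 past 1.5-fold became 176 and 508 with a pseudocount of 0.1, 200 and 544 with reads scaled to the protein-coding total and no pseudocount, 164 and 703 without a filter, and 5 and 48 at a mean of at least 5 FPKM, which keeps 9 of the 10 genes. The filters change which genes are tested, and a smaller pseudocount, or none, enlarges the differences of low genes by arithmetic. The part of the scaling to protein-coding reads in the last of these counts without a pseudocount was not tested. No paired analysis was possible because each group has 1 library, and for the same reason no replicate could be left out. Depth limits Dppa3 most, with 74 and 61 reads.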

Other observations

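DPPA2 and DPPA4 are known to switch on Dux and with it genes of the 2-cell embryo, which flicker on in a few stem cells of a culture. Of 20 genes in the table listed for a link to this state, 3 had a mean of at least 1 FPKM. Zscan4a stood at 1.14 and 0.88 FPKM in the libraries labelled scramble siRNA and Mettl8 siRNA, a ratio of 0.772 (0.537 to 1.11). The predicted gene Gm5662 stood at 1.32 and 1.23 FPKM. The third, Smarca5, is a chromatin remodeler active in all these cells, at 39.8 and 42.6 FPKM. The Dux gene, listed as Duxf3, was at 0.08 and 0.13 FPKM. Zscan4c stood at 0.86 and 0.55 FPKM, a ratio of 0.640 (0.407 to 0.993) on 56 and 35 reads. Zscan4d stood at 0.99 and 0.89 and Zscan4e at 0.49 and 0.34. Zscan4b (0.21 and 0.32) and Zscan4f (0.48 and 0.61) were higher in the library labelled Mettl8 siRNA. The intervals of the Zscan4 genes other than Zscan4c held 1. Without the filter on low values, 8 of the 20 genes, Smarca5 among them, were higher and 9 lower. Their median was 0.0, as was that of all genes. The Zscan4 genes are near-copies of each other, and single values are uncertain.

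Of 3 genes reported to need DPPA2 or DPPA4 in stem cells, 2 had a mean of at least 1 FPKM. Syce1, a meiotic synaptonemal complex gene, stood at 6.14 and 5.32 FPKM, a ratio of 0.866 (0.720 to 1.04), and Mael, a piRNA pathway gene, at 1.70 and 1.87, a ratio of 1.10 (0.805 to 1.49). Nkx2-5, a heart transcription factor gene, was at 0.09 and 0.07 FPKM, on 4 and 3 reads.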
